A study of Mus musculus with 2 samples.

Results

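The 9 mouse genes Fat1, Fat2, Fat3, Fat4, Dchs1, Dchs2, Celsr1, Celsr2 and Celsr3, which encode the giant cadherins of the Fat, Dachsous and Celsr families, were examined in peak lists of Prrc2a RIP-seq. The members were all peaks of either replicate that overlapped an exon of these genes by at least 1 bp in GENCODE release M21 on mm10 (GRCm38). There were 203 such peaks of 36800 in all, with 101 among 18129 in replicate 1 and 102 among 18671 in replicate 2. A replicate 1 peak that overlapped a replicate 2 peak by at least 1 bp was called shared. The genes were chosen by their family and selected on the number of peaks they carried in these same lists, so the presence, number and height of their peaks are given as a description and were not tested.

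RIP-seq reads the RNA that comes down with an antibody against a protein, here Prrc2a, a proline-rich coiled-coil protein studied as a reader of N6-methyladenosine in mRNA. Both samples were whole brain of wild type C57BL/6J male mice aged 4 weeks, with no other genotype or treatment, and the protocol speaks of 3 brains without saying how they were divided between the replicates. Fold enrichment, the value deposited for each peak, is a linear ratio of immunoprecipitate over control as given by the peak caller. The library that served as control, the read totals and the RNA level of each gene were not given in the sources used here, so depth is unknown, and absence of peaks cannot be told apart from low RNA or few reads. In whole brain, fewer cells of a type and less RNA per cell cannot be told apart either.

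Fat and Dachsous proteins are single-pass membrane proteins with long rows of extracellular cadherin repeats. A Dachsous protein on one cell binds a Fat protein on its neighbour, and the pair orients cells within a tissue and feeds into growth control through the Hippo pathway. Celsr proteins, the vertebrate counterparts of Flamingo, join cadherin repeats to an adhesion G protein-coupled receptor and act in planar cell polarity together with Frizzled, Vangl and Prickle. In the brain these families are known for roles in neuronal migration, dendrite shape, axon guidance and ependymal cilia. All of them are encoded by very long coding sequences in which a few exons are unusually large.

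All 9 genes had an exonic peak in at least 1 replicate, as did 24.0% of the 21951 protein-coding genes. Replicate 1 had peaks in 8 of the 9 (and in 3617 protein-coding genes in all), replicate 2 in 9 of 9 (and in 4619). A shared peak was present in 8 of the 9 genes and in 12.0% of all protein-coding genes. Among the 1240 protein-coding genes with at least as many exonic bases as the shortest of the 9 (Dchs2, 10783 bases), 45.3% had a shared peak, a higher share than over genes of any length. Because the genes were selected with these peaks in view, nothing is read from the difference.

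The 75 shared peaks were spread very unevenly. Fat3 had 21, Fat4 14, Dchs1 12, Fat1 9, Dchs2 7, Celsr2 7, Celsr1 4, Celsr3 1 and Fat2 none. Among the 2629 genes with a shared peak the median was 2, and 76 genes had 10 or more. Replicate-specific peaks numbered 26 in replicate 1 and 25 in replicate 2. Most of them fell in a few genes: Celsr1 (10) and Dchs2 (7) in replicate 1, Fat2 (9) and Celsr2 (6) in replicate 2. The 9 genes thus had 75 shared peaks among 101 (replicate 1) and 77 among 102 (replicate 2). Each complete list, peaks outside exons included, was mostly unshared: 46.2% (replicate 1, 18129 peaks) and 47.8% (replicate 2, 18671 peaks) met a counterpart. The difference from the 9 genes was not tested.

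**Figure D1:**
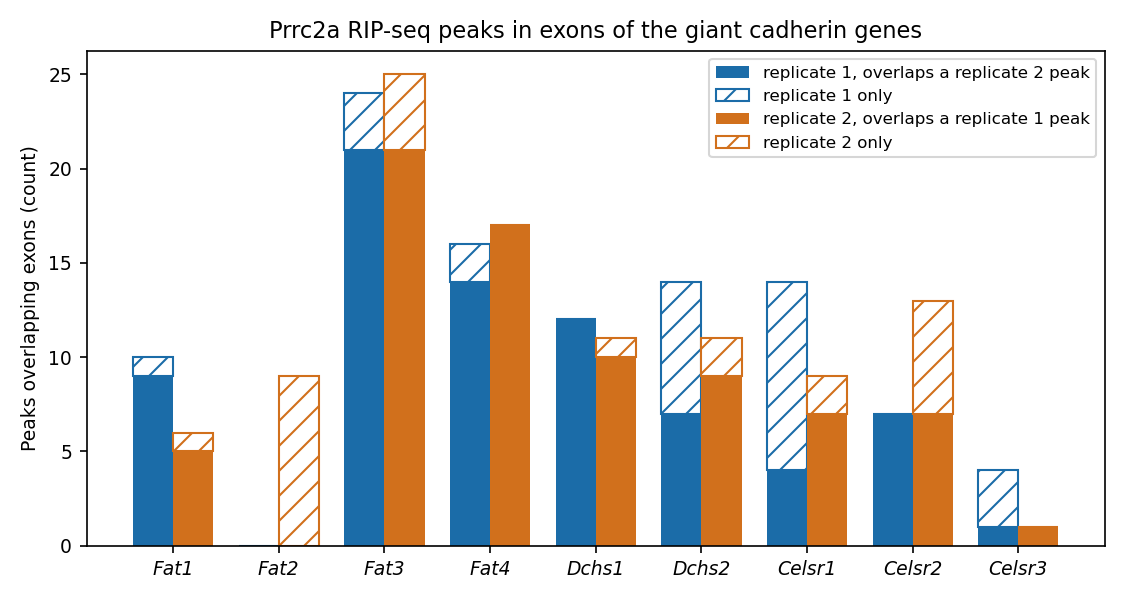
Number of peaks that overlap exons of each gene (y axis, count) in replicate 1 (blue) and replicate 2 (orange); solid bars overlap a peak of the other replicate and hatched bars do not. Fat3 and Fat4 are solid over most of their height, all 9 Fat2 peaks belong to replicate 2, and 10 of the 14 replicate 1 peaks of Celsr1 are unmatched.

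Peak counts depend on how the caller divides a stretch, and the same stretch was often 1 peak in 1 replicate and several in the other. The coding bases under peaks were therefore also counted. On this measure Fat4 and Fat3 ranked 1 and 2 among the 2629 genes with a shared peak, with 12603 and 12187 coding bases under peaks of both replicates. Dchs1 ranked 10 (6878 bases), Fat1 13 (6624), Celsr2 35 (4835), Dchs2 66 (3648), Celsr1 245 (1823) and Celsr3 1352 (319). As a share of the coding sequence the same genes stood lower in that order, with Fat3 at rank 112 and Fat4 at rank 145. The median over all genes with a shared peak was 15.0% of coding bases under both replicates.

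Fat4, the main mammalian receptor for Dachsous ligands, lies at chr3:38886940-39011985 on the plus strand and encodes 4981 residues in 17 exons. Peaks covered 99.2% of its coding bases in replicate 1 and 84.3% in replicate 2 (mean 91.7% ± 10.5, SD, n = 2), and every one of the 17 replicate 2 peaks overlapped a replicate 1 peak. In replicate 1, 16 of the 17 coding exons carried a peak, in replicate 2, 14. The first exon, with 5175 coding bases the longest of all 9 genes, was taken up by a single peak of 6441 bp in replicate 1 (fold enrichment 6.40) and of 6060 bp in replicate 2 (13.7). The last exon was 1 peak in replicate 1 (5.96) and 3 peaks in replicate 2 (10.2, 4.33 and 2.08, in coding order), the last of them in the 3′ UTR. Exon 4 held the peak with the highest mean fold enrichment of all 75, at 14.7 in replicate 1 and 6.22 in replicate 2 (mean 10.5 ± 6.00, SD, n = 2), and 99.9% of replicate 1 peaks had a lower value. The replicates did not put the same exon first, since exon 1 was the higher in replicate 2 and exon 4 in replicate 1. The central 300 of the 351 coding bases that both replicates covered in exon 4 (plus strand, chr3:38951049-38951348, residues 1866 to 1965) are shown because they lie under that highest peak. Capitals mark GGAC, the core of the motif in which N6-methyladenosine is found.
Fat4 exon 4: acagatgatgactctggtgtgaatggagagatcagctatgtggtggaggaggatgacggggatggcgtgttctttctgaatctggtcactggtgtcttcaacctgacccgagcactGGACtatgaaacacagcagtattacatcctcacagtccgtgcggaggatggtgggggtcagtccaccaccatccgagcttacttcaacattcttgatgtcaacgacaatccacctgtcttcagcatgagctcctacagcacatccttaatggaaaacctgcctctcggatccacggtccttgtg
A single GGAC stands in these bases, followed by T.

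Fat3, a neuronal Fat protein known for shaping amacrine cell dendrites in the retina, lies at chr9:15910189-16501285 on the minus strand and encodes 4551 residues. Its coding bases were covered to 92.3% in replicate 1 and 94.3% in replicate 2 (mean 93.3% ± 1.47, SD, n = 2), the closest pair of values among the genes with a shared peak. Of its 25 coding exons, 19 carried a peak in replicate 1, 22 in replicate 2 and 18 in both. Exon 16 carried the highest replicate 1 peak of the gene (fold enrichment 6.26) and exon 23 a replicate 2 peak of 6.15, both without a counterpart. The large exon 10, of 4074 bases, was covered whole by 1 peak in each replicate, with fold enrichments of 4.18 and 4.50. The highest shared peak of Fat3 covered exon 2, at 5.60 in replicate 1 and 9.26 in replicate 2. Fat3 was also the gene that supplied all 3 shared peaks with a midpoint in a 3′ UTR, at 2.00, 1.80 and 1.74 in replicate 1, which were low among its own peaks (median 2.92). The central 300 of the 3277 coding bases under the exon 2 peak (minus strand, chr9:16376438-16376737, residues 497 to 596) are shown as a stretch of the gene with the most shared peaks.
Fat3 exon 2: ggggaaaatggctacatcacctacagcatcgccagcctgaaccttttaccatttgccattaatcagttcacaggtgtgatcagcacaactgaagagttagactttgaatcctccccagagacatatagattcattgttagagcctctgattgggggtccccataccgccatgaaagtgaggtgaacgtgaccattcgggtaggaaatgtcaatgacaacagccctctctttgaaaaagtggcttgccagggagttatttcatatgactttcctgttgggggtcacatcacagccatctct
No GGAC occurs in these central bases, although both replicates covered them. The exonic bases of the whole exon 2 peak held 16 GGAC in each replicate, 2 of them followed by T.

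Fat1, a widely expressed Fat protein that acts at cell contacts and on the actin cytoskeleton, lies at chr8:44935447-45052257 on the plus strand. Exons are numbered here in the transcript with the longest coding sequence, in which the first exon already holds the start codon. Peaks covered 50.7% of coding bases in replicate 1 and 59.7% in replicate 2 (mean 55.2% ± 6.38, SD, n = 2). Most of the covered bases lay in exons 1 and 10. Exon 1 had fold enrichments of 3.38 and 3.90, and exon 10, of 4068 bases, held 5 separate peaks in replicate 1 (1.45 to 2.04) under 1 peak of 4133 bp in replicate 2 (3.89). All 9 shared peaks were higher in replicate 2, but 5 of them were set against that same replicate 2 peak. Downstream of exon 10 the replicates had 1 peak each, in exon 19 (1.52) and exon 18 (2.84), which did not overlap. A further shared peak at the start of the gene (2.51 and 3.49) met only an exon of other Fat1 transcripts.

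Fat2, known from cerebellar granule cells, lies at chr11:55250609-55336564 on the minus strand and was the gene on which the replicates differed outright. Replicate 1 had no peak in its exons. Replicate 2 had 9, with fold enrichments of 2.01 to 6.17 and a median of 2.65, over 27.8% of the coding bases. They fell in exon 1 (6.17, the highest), exon 2 (3 peaks), exons 3 and 5, and the large exon 10 (3 peaks). Only 52 of the 246 bp of the exon 1 peak were exonic, and its midpoint lay in an intron. The next highest value was 3.41, in exon 2. Another 3 replicate 2 peaks (3.34, 4.51 and 5.77) lay in Fat2 introns, also without a counterpart.

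**Figure D2:**
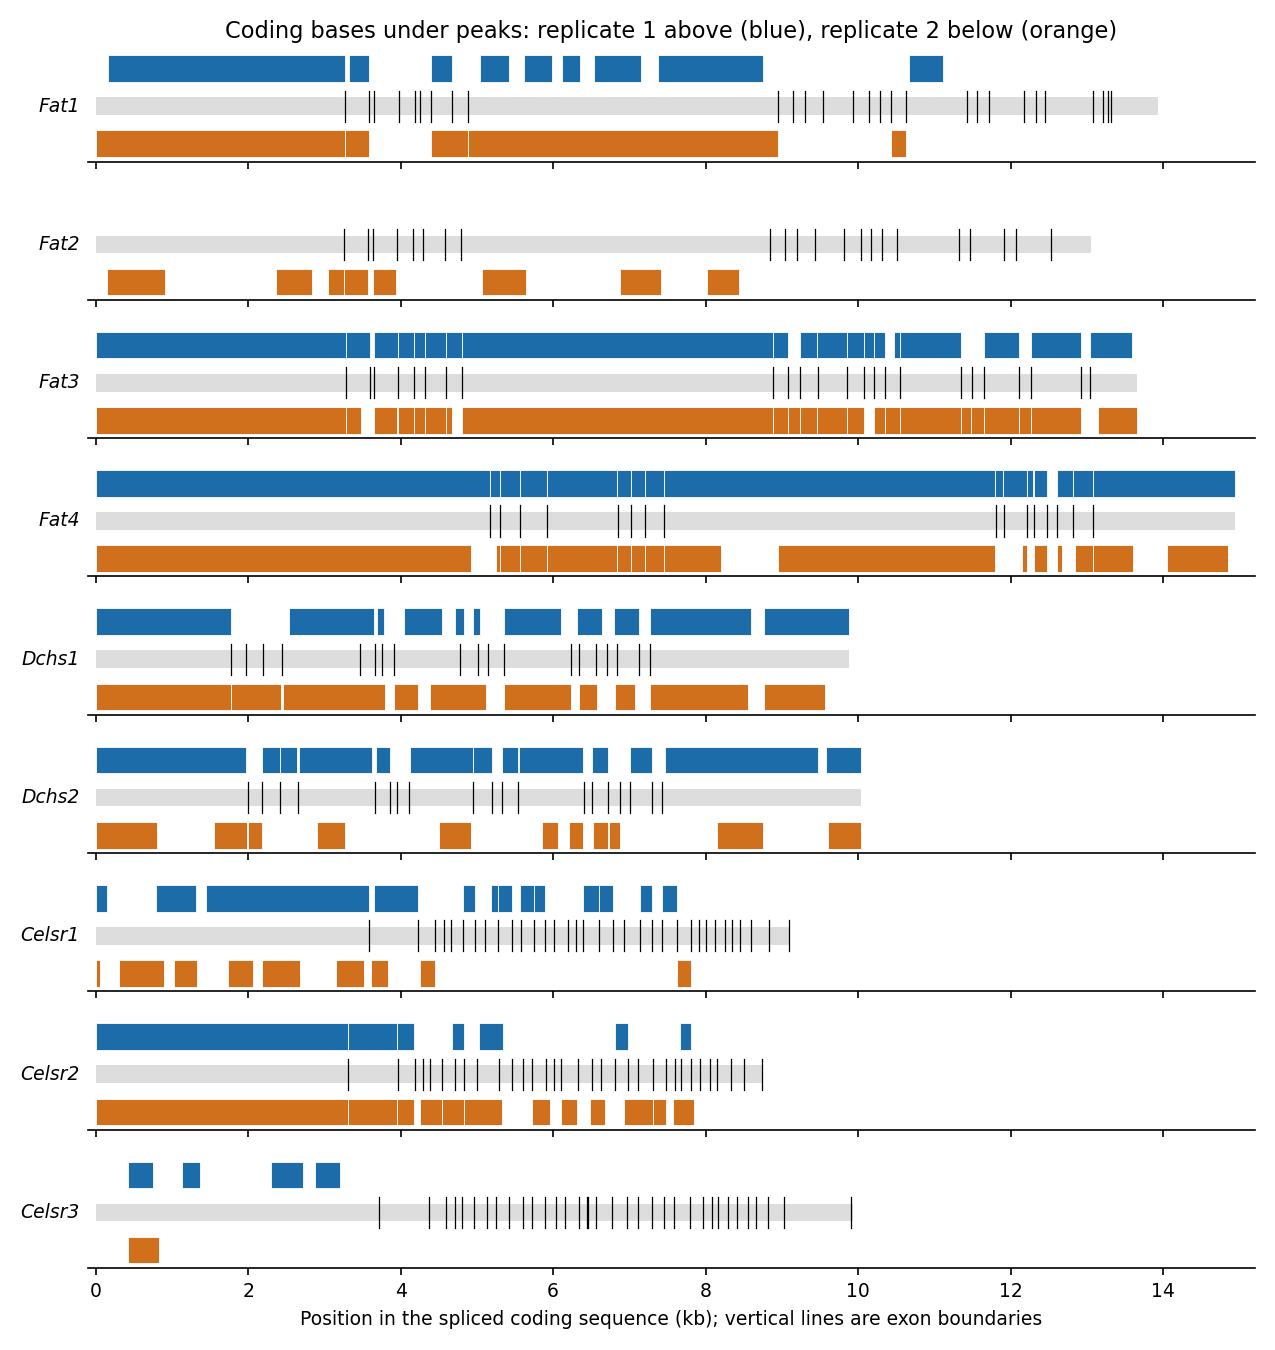
Spliced coding sequence of each gene drawn to scale (x axis, kb from the start codon; grey bar, with vertical lines at exon boundaries) with the stretches under replicate 1 peaks above it in blue and under replicate 2 peaks below it in orange. Fat3 in both replicates and Fat4 in replicate 1 are covered almost end to end, and Fat4 in replicate 2 to 84.3%. The 3′ part of Fat1 and of Celsr3 is nearly bare, and Fat2 is bare in replicate 1.

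The Dachsous genes encode the ligands of the Fat receptors. Dchs1, the partner of Fat4 in brain and other organs, lies at chr7:105752990-105787654 on the minus strand. Peaks covered 76.4% of its coding bases in replicate 1 and 84.0% in replicate 2 (mean 80.2% ± 5.41, SD, n = 2), and all 12 replicate 1 peaks were shared. The exons of Dchs1 lie close together, so several peaks ran over 2 or more exons with the introns between them, and 3 of the 12 had their midpoint in an intron. Its peaks stood higher in replicate 2. The median fold enrichment was 2.88 in replicate 1 and 5.71 in replicate 2, the shared peaks had a median log2 ratio of replicate 1 over replicate 2 of -1.07 (SD 0.55 over 12 peaks), and only 1 of the 12 was higher in replicate 1. Of the 12, 3 were set against the same replicate 2 peak (6.63) and 2 against another (5.71), so the ratios are not separate values. Over all 7317 shared peaks that met a protein-coding exon the median ratio was -0.28 (SD 0.51). The highest shared peak of Dchs1 lay in the last exon, at 3.61 and 7.59. The central 300 of the 1294 coding bases covered by both replicates there (minus strand, chr7:105755273-105755572, residues 2588 to 2687) are shown. They hold 3 GGAC.
Dchs1 exon 21: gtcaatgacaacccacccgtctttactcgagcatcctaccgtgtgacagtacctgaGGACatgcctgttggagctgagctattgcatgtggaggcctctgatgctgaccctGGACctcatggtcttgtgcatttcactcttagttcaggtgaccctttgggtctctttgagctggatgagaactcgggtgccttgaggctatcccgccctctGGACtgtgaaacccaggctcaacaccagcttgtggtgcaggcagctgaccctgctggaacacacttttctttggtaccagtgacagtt
The last of the 3 is followed by T.

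Dchs2, the second Dachsous gene, lies at chr3:83127948-83357209 on the plus strand. Replicate 1 peaks covered 86.1% of its coding bases and replicate 2 peaks 39.8% (mean 62.9% ± 32.7, SD, n = 2), so coverage differed more between replicates than in any other of the 9 genes. Height did not show the same gap, with a median fold enrichment over all its peaks of 5.03 in replicate 1 and 4.41 in replicate 2. Exon 1 was 1 peak of 2564 bp in replicate 1 (9.79) and 2 peaks in replicate 2 (6.02 and 9.67). The higher replicate 2 value gave the pair 9.79 and 9.67 (mean 9.73 ± 0.0833, SD, n = 2). That closeness depends on the choice of replicate 2 peak. The peak of 6.02 shared more bases with the replicate 1 peak (1102 against 424 bp), and with it the mean was 7.91 ± 2.67 (SD, n = 2). Exons 5, 9, 13 and 20 held the other tall peaks, at 7.05, 7.46, 9.35 and 7.46 in replicate 1 and 7.52, 3.56, 4.41 and 9.08 in replicate 2. A run of short exons (3, 4, 6, 10, 12 and 18) had a peak in replicate 1 only. The central 300 of the 424 coding bases common to the peaks of 9.79 and 9.67 (plus strand, chr3:83129559-83129858, residues 538 to 637) are shown.
Dchs2 exon 1: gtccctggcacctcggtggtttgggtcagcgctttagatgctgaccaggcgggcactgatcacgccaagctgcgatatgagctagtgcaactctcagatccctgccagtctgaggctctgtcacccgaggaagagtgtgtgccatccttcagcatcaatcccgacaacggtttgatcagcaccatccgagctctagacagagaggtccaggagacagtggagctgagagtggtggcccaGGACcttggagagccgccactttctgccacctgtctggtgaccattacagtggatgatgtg

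The Celsr genes had fewer shared peaks than the Fat and Dachsous genes, 12 in 3 genes against 44 in 4 Fat genes and 19 in 2 Dachsous genes. Celsr1, a core planar polarity protein of skin, inner ear and neural tube, lies at chr15:85898929-86033777 on the minus strand. Peaks covered 53.9% of its coding bases in replicate 1 and 30.0% in replicate 2 (mean 41.9% ± 16.9, SD, n = 2). Its 4 shared peaks were all in exons 1 and 2 and were tall, with 4.74, 7.37 and 6.48 in exon 1 and 7.21 in exon 2 in replicate 1, against 3.61, 5.62, 6.24 and 5.02 in replicate 2. All 4 were higher in replicate 1, unlike the shared peaks of Dchs1 and Fat1. The 103 coding bases common to the tallest pair (minus strand, chr15:86032880-86032982, residues 263 to 297) read as follows.
Celsr1 exon 1: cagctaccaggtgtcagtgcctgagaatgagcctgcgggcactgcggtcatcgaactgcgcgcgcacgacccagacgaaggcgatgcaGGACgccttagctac
The remaining 10 replicate 1 peaks of Celsr1 were 203 to 379 bp wide, scattered over single downstream exons and the 3′ UTR, and none met a replicate 2 peak.

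Celsr2, which acts in neuronal dendrites and ependymal cilia, lies at chr3:108390851-108415552 on the minus strand. Peaks covered 56.7% of its coding bases in replicate 1 and 76.8% in replicate 2 (mean 66.8% ± 14.2, SD, n = 2). All 7 replicate 1 peaks were shared. Exon 1 was a single wide peak in both replicates, 3921 bp at a fold enrichment of 2.20 and 3945 bp at 2.21, lower than the peaks over exon 10 of Fat3 and exon 1 of Fat4. The highest shared peak lay over exons 7 and 8 (2.86 and 5.21). Celsr3, needed for the forebrain axon tracts, lies at chr9:108826320-108852969 on the plus strand and was at the low end of the shared genes. It had 4 peaks in replicate 1 (1.42 to 1.81) and 1 in replicate 2 (1.58), all within exon 1, with 1 shared pair (1.81 and 1.58). Peaks covered 13.3% of its coding bases in replicate 1 and 4.13% in replicate 2, and 3.21% lay under peaks of both. Its highest value, 1.81, was below the median fold enrichment of each other gene in either replicate.

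**Figure D3:**
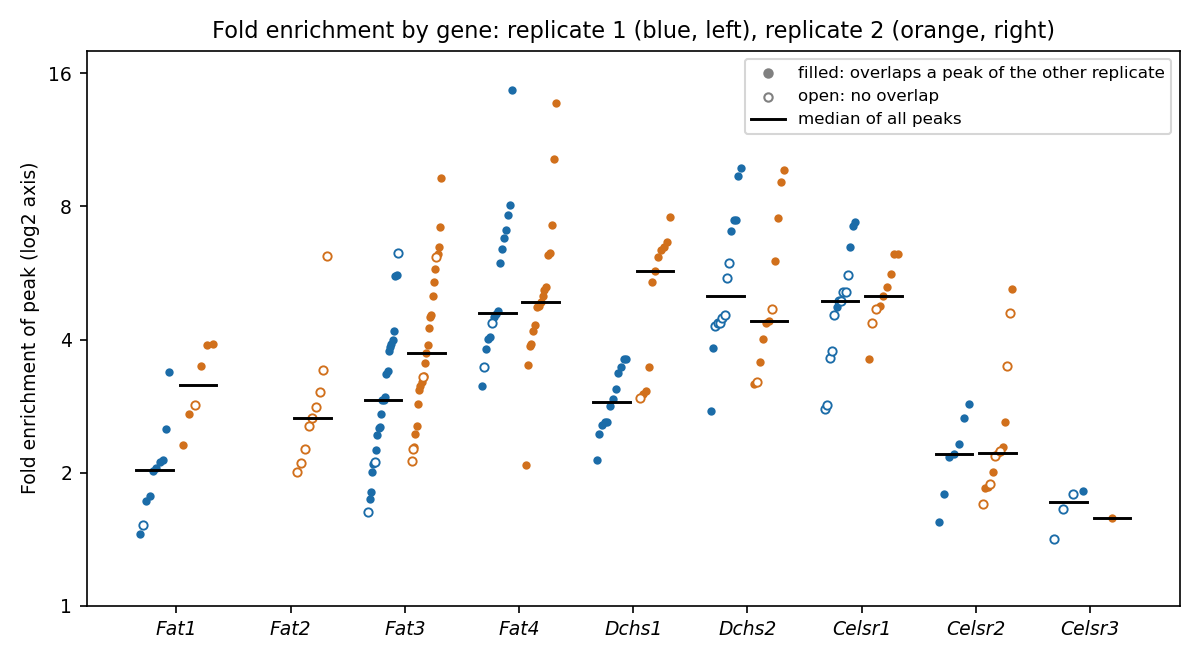
Fold enrichment of every exonic peak (y axis, log2-spaced, linear ratio) by gene, replicate 1 in blue on the left and replicate 2 in orange on the right; filled points overlap a peak of the other replicate, open points do not, and black bars are medians. Dchs1 and Fat1 lie higher in replicate 2, Fat4, Dchs2 and Celsr1 have medians above 4 in both replicates, and Celsr3 lies at the bottom.

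Over the 75 shared peaks the median fold enrichment was 3.14 in replicate 1 and 4.25 in replicate 2, beside 2.27 and 2.83 for all 7317 shared peaks that met a protein-coding exon. Where a replicate 1 peak met several replicate 2 peaks, the higher of their values was used. Both replicates reached a fold enrichment of 4 or more at 19 of the 75 (25.3%), of which 9 were in Fat4, 4 in Dchs2, 3 in Fat3 and 3 in Celsr1, and at 6.77% of all shared exonic peaks. Order of height carried over between replicates only in part. Spearman's rho between the values of the replicates was 0.53 over the 75 peaks and 0.56 over all 7317, a description across peaks that share genes and libraries.

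Along the transcript, coverage was highest toward the 5′ end of the coding sequence. Position coincided with exon size in these genes. The first coding exon held 3259 to 5175 coding bases in the Fat genes and 3310 to 3721 in the Celsr genes. In Dchs1 and Dchs2 the longest coding exon was the last (2609 and 2612 bases). Position and exon size were not separated in the values below. When each coding sequence was cut into 4 equal parts, replicate 2 peaks covered more of part 1 than of part 4 in all 9 genes, and replicate 1 peaks did so in 6 of the 8 genes that had any, the exceptions being Dchs1 and Dchs2. Averaged over genes, coverage went from 81.7% in part 1 through 75.8% and 56.3% to 50.9% in part 4 in replicate 1, and from 75.2% through 62.7% and 47.7% to 37.4% in replicate 2. Other genes of at least the same exonic length with a shared peak had a smaller difference between the ends, at 42.0%, 42.4%, 38.0% and 32.2% from part 1 to part 4 in replicate 1 and 41.9%, 40.8%, 35.8% and 30.7% in replicate 2, with part 1 ahead of part 4 in 58.5% of 477 and 59.1% of 509 genes. The fall was largest in Fat1 (93.8% to 13.0% in replicate 1 and 100.0% to 4.94% in replicate 2) and in Celsr2 (100.0% to 14.5% and to 43.1%). It was smallest in Fat3 in replicate 2 (100.0% to 93.5%) and in Fat4 in replicate 1 (100.0% to 96.6%).

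**Figure D4:**
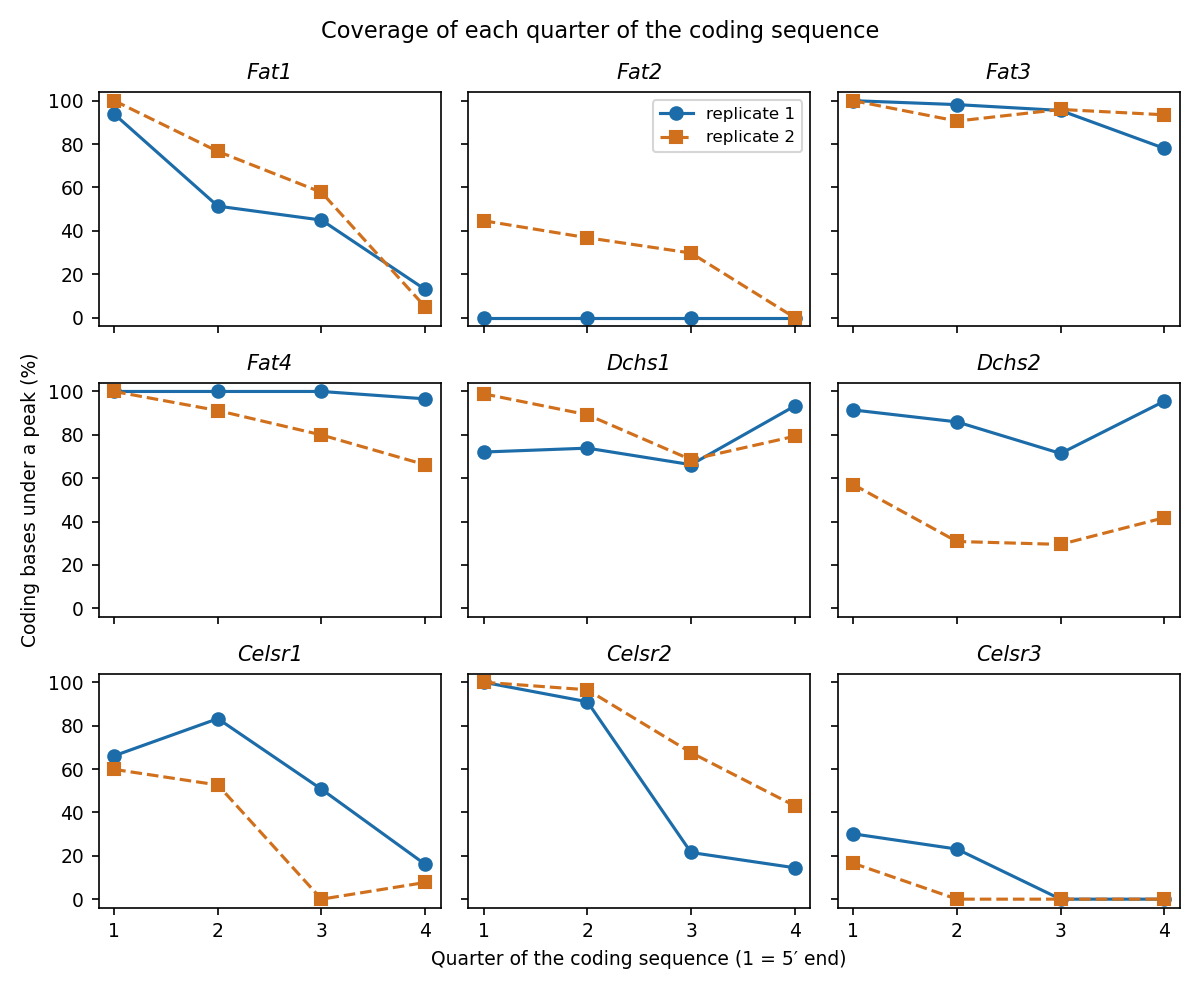
Share of coding bases under a peak (y axis, percent) in each of 4 equal parts of the coding sequence (x axis, 1 at the 5′ end) for each gene, replicate 1 as blue circles and replicate 2 as orange squares. Fat1, Celsr2 and Celsr1 fall toward the 3′ end, Fat3 stays at 78.0% or more throughout, and Dchs1 and Dchs2 rise again in part 4.

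In the Fat and Dachsous proteins the membrane span divides a very long ectodomain from a short cytoplasmic tail. The most hydrophobic window of 19 residues was taken as the span, at residues 4208 to 4226 of 4645 in Fat1 and 4509 to 4527 of 4981 in Fat4. Bases that encode the Fat1 tail had no peak in either replicate, against 56.1% and 66.0% of the bases before the span. The Fat4 tail was covered to 100.0% and 60.2%, the Fat3 tail to 84.0% and 80.6%, the Dchs1 tail to 100.0% and 70.1% and the Dchs2 tail to 89.3% and 41.4%. Fat1 and Fat2 were thus without peaks over the tail, while Fat3, Fat4 and both Dachsous genes had them in both replicates. The bare stretch of Fat1 and Fat2 began well before the span. Past exon 10, which ends at coding base 8953 in Fat1 and 8848 in Fat2, Fat1 had peaks only in exons 18 and 19 and Fat2 had none. The tail values of these genes therefore do not mark a break at the span. Start codons lay under a peak in 6 genes in replicate 1 and in those and Fat1 in replicate 2, and the stop codon lay under a peak of both replicates only in Dchs2.

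Exon size went with coverage. Of the 18 coding exons over 1000 bases in the 9 genes, 16 carried a peak in replicate 1 and 18 in replicate 2, the replicate 1 exceptions being the 2 of Fat2. Of the 86 coding exons of up to 150 bases, 14 and 17 did (16.3% and 19.8%). The classes between were intermediate, at 40.8% and 45.6% of 103 exons up to 300 bases and 56.3% and 59.4% of 32 exons up to 1000 bases. The exons of the other genes with a shared peak rose in the same way, from 7.82% and 11.7% in the smallest class to 92.9% and 91.9% in the largest. Longer exons offer more bases to meet a peak, so the share of bases was counted as well. In the 9 genes it also rose over the 4 classes, from 13.8% through 38.2% and 55.0% to 77.8% in replicate 1 and from 16.3% through 40.8% and 48.8% to 74.3% in replicate 2. Most peaks followed single exons: 90 of the 101 replicate 1 peaks and 88 of the 102 replicate 2 peaks touched exactly 1 exon, and 43 and 39 of these contained it whole and met no exon of another gene, with a median of 232 and 234 exon bases and a further 209 and 231 bases of peak beyond the exon.

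**Figure D5:**
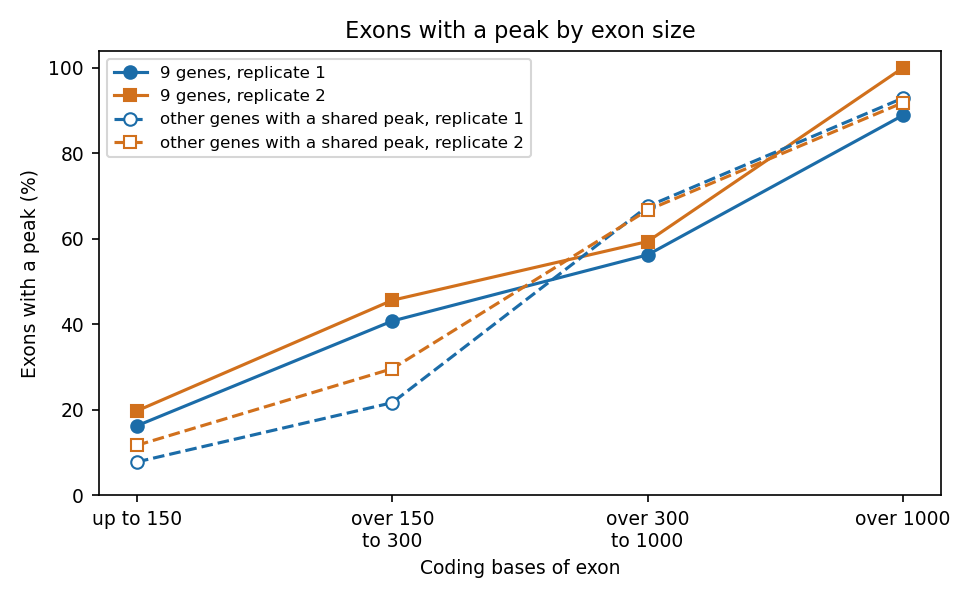
Share of coding exons with a peak (y axis, percent) by coding bases of the exon (x axis, 4 classes) for the 9 genes (solid lines, filled symbols) and for the other genes with a shared peak (dashed lines, open symbols), replicate 1 in blue and replicate 2 in orange. All 4 lines rise with exon size, and the 9 genes lie above the other genes in both smaller classes and below them at over 300 to 1000 bases.

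By midpoint, 66 of the 75 shared peaks lay in coding sequence (88.0%), 5 outside the exons of the gene (6.67%), 3 in a 3′ UTR (4.00%) and 1 in a 5′ UTR (1.33%). Over all 7317 shared exonic peaks coding sequence held 50.7%, bases outside exons 5.84%, the 3′ UTR 30.5% and the 5′ UTR 11.5%. The 9 genes have long coding sequences and the comparison does not correct for that. In Fat4, Dchs2 and all 3 Celsr genes every shared peak had its midpoint in coding sequence. The shared peaks were 518 bp wide at the median, against 469 bp over all shared exonic peaks, and 18 of them (24.0%) were wider than 1 kb, against 17.6%.

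GGAC was searched in the exonic bases of each peak on the strand of the transcript. It occurred in 63 of the 75 shared peaks (84.0%), beside 77.9% of all shared exonic peaks, and GGACT, which contains it, in 42 (56.0%), beside 43.0%. Density over the exonic bases was 6.01 sites per kb in the 9 genes and 4.64 over all shared exonic peaks. The whole coding sequence of the 9 genes, covered or not, held 6.27 per kb. The shares were not corrected for peak width, and neither shares nor densities for region. Within the 9 genes the density under peaks was higher than elsewhere in some genes and lower in others. Pooled, coding bases covered by both replicates held 5.93 sites per kb (290 sites in 48.9 kb), and coding bases covered by neither held 6.84 per kb (209 sites in 30.5 kb). Fat2 and Celsr3, which were mostly uncovered, supplied 69 and 66 of the 209 sites and 0 and 5 of the 290, so the pooled values largely set different genes against each other. Of the 8 genes with bases under both replicates, 4 were denser there than in bases under neither, Dchs2 (8.22 and 0.953 per kb), Celsr1 (8.23 and 6.72), Celsr2 (6.20 and 5.79) and Celsr3 (15.7 and 7.75). The other 4 were less dense there, Fat1 (3.62 and 5.44), Fat3 (5.09 and 11.0), Fat4 (6.03 and 15.7) and Dchs1 (6.98 and 8.73). Several of these densities rest on few bases, such as 2 sites each in the uncovered bases of Fat3 and Fat4 and 1 in those of Dchs2. Fat2, uncovered in replicate 1, held 7.28 sites per kb over its whole coding sequence, more than Fat3 (5.42) or Fat4 (6.02). The pooled GC content of the coding bases under both replicates and under neither was 53.0% and 55.6%, which again largely sets different genes against each other. Within genes it was lower under both replicates in Fat1, Fat3, Fat4 and Celsr1. It was higher there in Dchs1, Dchs2, Celsr2 and Celsr3. A match is a string of letters and not a measured methylation site.

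Repeated values limit what height says in some of these genes. In each list, some fold enrichments recurred exactly in at least 10 peaks, 24.8% of all replicate 1 peaks and 15.3% of all replicate 2 peaks. Among the 26 replicate 1 peaks of the 9 genes that were not shared, 17 carried such a value (65.4%), and among the 75 shared ones 4 did (5.33%). Over all replicate 1 peaks the shares were 41.1% of those not shared and 5.96% of those shared. In replicate 2 they were 28.0% of the 25 unshared and 28.6% of the 77 shared peaks of the 9 genes. The repeated values concentrated in Celsr1 (10 of 14 peaks in replicate 1 and 9 of 9 in replicate 2) and Dchs2 (7 of 14 and 6 of 11). Fat4 had them in 4 of 16 and 7 of 17 peaks. In Fat4 both values of the shared pairs over exon 2 (7.07 and 4.76) and exon 7 (7.65 and 5.27) were repeated ones. Fat1, Fat3, Dchs1, Celsr2 and Celsr3 had none in replicate 1. The part of repeated values in the differences between replicates was not tested.

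Peaks near the limits of the rule were as follows. The smallest exonic overlap of a member was 50 bp, in Fat1 (replicate 1, fold enrichment 2.51), and the nearest peak outside exons lay 307 bases from a Fat3 exon (replicate 1, 5.25). The shortest overlap that made a peak shared was 117 bp, in Celsr2 (1.79 in replicate 1), and the nearest replicate 1 peak left unshared lay 261 bases from a replicate 2 peak, in Dchs2 (4.28). Introns of the 9 genes held 6 further peaks, 3 of them the Fat2 peaks above, and none was shared. Exons of other annotated genes lay under 6 of the 75 shared peaks, among them an antisense transcript (C230034O21Rik) under the Fat4 exon 1 peak, a lincRNA (Gm10710) under the Dchs2 exon 1 peak and a pseudogene (Gm15645) in Dchs1, and since the lists carry no strand, those peaks cannot be assigned to 1 transcript.

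Genes known to work with the giant cadherins, and other genes of the cadherin superfamily, were read from the same lists. Of 17 other planar polarity genes, 6 had a shared peak. They were Lrp6 (9 shared peaks), a Wnt co-receptor, Fzd3 (8), a Frizzled receptor of axon guidance, Prickle2 (6), and Prickle1, Ankrd6 and Fjx1 with 1 each. Of 9 further partners of Fat and Dachsous proteins only Dlg5, a scaffold protein, had a shared peak, with 3 of 9 carrying a replicate 1 peak and 6 of 9 a replicate 2 peak. Of 23 Hippo pathway genes 8 had one, including the kinases Lats1 (4) and Lats2 (5), the upstream regulators Nf2 (2), Wwc1 (2) and Wwc2 (5), Taok1 (5), and Amot and Amotl1 (1 each). Of 38 other genes of the cadherin superfamily 17 had one, led by Cdh12 (9), Pcdh10 (8), Pcdh7 (7) and Pcdh19 (6). The 38 included the calsyntenins Clstn1, Clstn2 and Clstn3 and the receptor tyrosine kinase Ret, none with a shared peak. Together 32 of the 87 genes (36.8%) had a shared peak, beside 12.0% of all protein-coding genes, and 40 and 54 had a peak in replicate 1 and in replicate 2, beside 3617 and 4619 of all 21951. The 1 of 9 partners (11.1%) was close to the share over all genes. Most of these genes are shorter than the 9, with a median of 6452 exonic bases. Among protein-coding genes of at least 10783 exonic bases 45.3% had a shared peak, and the 36.8% was not corrected for length. The lists were drawn up with earlier results of these data known.

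Among markers of cell types, shared peaks were present in 0 of 5 neuronal, 1 of 5 astrocytic (Slc1a2), 0 of 5 oligodendrocytic, 1 of 5 microglial (Csf1r), 0 of 5 endothelial and 0 of 5 other-tissue markers, few genes to set beside the 12.0% over all protein-coding genes. Markers with any peak in replicates 1 and 2 numbered 0 and 1 neuronal, 2 and 1 astrocytic, 1 and 1 oligodendrocytic, and 1 and 2 microglial. Endothelial and other-tissue markers had none. Over all 21951 protein-coding genes 3617 and 4619 had one. The oligodendrocytic marker was Mbp, with 2 peaks in each replicate and none shared. Peak lists hold no expression level, so these counts do not check the tissue, and which brain cells contributed the giant cadherin RNA was not measured.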

How the data were processed

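RIP-seq for Prrc2a was carried out on wild type mouse brain in 2 replicates of 1 condition. The authors aligned the reads to mm10 and called peaks in each replicate separately. The submitters' processing notes name TopHat2 2.0.9 and MACS2 2.0.10. The deposited value of each peak is its fold enrichment, a linear ratio. Reads per sample were not given in the sources used here, so depth is unknown. Positions were read as 1-based with both ends included.

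Overlaps were computed in Python 3.11.15 with numpy 2.4.6 and pandas 2.3.3 against GENCODE M21, and bases were read from GRCm38 with samtools 1.23.1 and pysam 0.24.0. Coding sequences were translated with Biopython 1.88 to place membrane spans by hydropathy, and figures drawn with matplotlib 3.10.9. A peak was counted for each gene with an exon under it. Its region was that at its midpoint. Interval functions were tested on simulated data. All 9 genes are named with the peaks of both replicates. The genes and lists were chosen with earlier results of these data known. No test was run, since there is 1 condition. Alternatives were overlap of 50% of both peaks, fold enrichment of at least 2 or 4, each replicate alone, the basic annotation, 1 gene per peak, whole gene spans, region by most bases, GGACT and a window of 100 bp.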

Additional observations from a re-analysis of the deposited data

How the results depend on the processing

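Of 53 alternatives to the values over all 9 genes, 33 stayed within the spread between replicates (or, for counts, within 1.5 times), and the other 20 are given here. With an overlap of at least 50% of both peaks, shared peaks of the 9 genes fell from 75 to 49 and the share with a midpoint in coding sequence was 95.9%. With 4 or more as the fold enrichment in each replicate, 19 shared peaks remained, in 4 genes, with 100.0% in coding sequence, a median fold enrichment of 6.49, GGAC in 94.7%, and 3 of the pathway genes. Counting replicate 2 peaks gave 77.9% in coding sequence and GGAC in 87.0%. Assigning each peak the region with the most bases gave 70.7% in coding sequence. GGACT was in 56.0%, and GGAC fell within the central 100 bp in 44.0%. Exons of basic transcripts gave 0.630 shared peaks per kb instead of 0.599. With either replicate alone, counts were 101 to 102 peaks in 8 to 9 genes and 40 to 54 pathway genes, 80.4% to 85.1% in coding sequence, median fold enrichment 3.46 to 3.90, GGAC in 80.2% to 84.3%, and 0.806 to 0.814 peaks per kb. Of 72 alternatives to the counts of single genes, 21 moved by over 1.5 times. Fat1 kept 3 shared peaks at 50% overlap, Dchs2 and Celsr1 kept 2 each, and Celsr3 kept none at a fold enrichment of 2 or more. No paired analysis was possible because there is 1 group. Depth is unknown, so which absent peaks reflect few reads cannot be told.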
